A study of Arabidopsis thaliana with 18 samples.

Results

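C24 and Col-0 are natural accessions of Arabidopsis thaliana, and Col-0 is the accession of the reference genome. Their developing seeds were compared at 12-13 days after flower opening, on 3 C24 arrays and 3 Col-0 arrays, which are 6 of the 18 arrays of a series that also holds both accessions at 8-9 and 10-11 days. The 6 arrays were chosen by the accession and stage in their labels, and all 19755 probe sets other than the array's own controls were compared. Plants of both accessions were grown untreated in soil in long days, and each pool of siliques held fruits harvested at 12 or at 13 days. Seeds of 48 siliques went into each array, with 8 siliques taken per plant and 6 plants per pool. The plants came from 2 experiments of 6 plants of each accession, so that the 3 pools of an accession had plants in common and p-values reflect the spread between pools. The sources used here do not tie an array to plants, to an experiment or to a hybridisation batch, so no batch could be tested.

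At this age an Arabidopsis embryo has filled most of the seed and is depositing storage proteins and oil. It still holds green plastids, and genes of late embryogenesis abundant (LEA) proteins, which are known for protecting cells as the seed dries, are being switched on. A dissected seed also holds the maternal seed coat, where flavonoids and mucilage are laid down earlier in development, and what remains of the endosperm.

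Levels are log2 values as deposited, and a difference of 1 on this scale is a 2-fold difference. Differences are C24 minus Col-0, given with the standard error (SE) of a model fitted to all 18 arrays with limma, and p-values are adjusted over all probe sets. A probe set passed at an adjusted p under 0.05. The files hold no detection measure. Levels under 4.41, the lowest 25th percentile of any array, may therefore be background, and differences measured against them may be too small. In whole seeds, fewer cells of a type and less RNA per cell cannot be told apart.

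The arrays of an accession were alike. They correlated across probe sets at 0.995 to 0.996 among the C24 arrays and at 0.992 to 0.994 among the Col-0 arrays, and at 0.976 to 0.981 between accessions. On the first principal component of all 18 arrays, which ordered them by stage, C24 averaged 59.9 ± 2.16 and Col-0 60.6 ± 0.047 (SD, n = 3 each). At the earlier stages C24 lay further along this component. At 10-11 days it was at 22.1 to 27.4 and Col-0 at -1.14 to 15.7, and at 8-9 days at -74.7 to -68.9 and Col-0 at -83.7 to -79.0. The part of these gaps in the stage contrasts below was not tested. The embryo markers with a named probe set, 3 of 9, averaged 13.40 to 13.47 in the C24 arrays and 13.21 to 13.26 in the Col-0 arrays. Those of the seed coat, 4 of 8, averaged 7.85 to 7.98 in C24 and 7.66 to 7.87 in Col-0. Those of the endosperm, 2 of 6, averaged 5.46 to 5.55 in C24 and 5.61 to 5.81 in Col-0, and those of the fruit wall, a tissue that dissection should remove, 2 of 8, averaged 7.07 to 7.18 in C24 and 6.72 to 7.01 in Col-0. Single genes weighed heavily in these averages. Of the 3 embryo markers OLEO3 passed (difference 0.44), and PAP85 and AT1G03890 did not (0.06 and 0.09). Of the 4 seed coat markers BAN passed (0.95), while ARA12, DFR and AT3G50990 did not (-0.09, -0.13 and 0.06). Of the 2 endosperm markers AGL62 passed (-0.27), with both group means under 4.41, and AGL80 did not (-0.17). Of the 2 fruit wall markers YAB3 passed, with C24 higher, and ALC did not (difference 0.16, adjusted p = 0.418). The part of these markers' tissues in the results below was not tested.

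RNA quality also moved with accession by the GAPDH controls, while the actin controls overlapped between accessions. The 3' minus 5' difference of the GAPDH control probe sets was 0.66, 0.53 and 0.53 in the C24 arrays and 1.04, 1.06 and 1.52 in the Col-0 arrays, and that of the actin control was 1.13, 1.32 and 1.16 in C24 and 1.05, 1.22 and 1.75 in Col-0. The third Col-0 array had the highest of the 6 values in all 4 pairs of control probe sets examined, which cover GAPDH and actin. Leaving it out left 3715 probe sets past the threshold, and leaving out any single one of the 6 arrays left 3627 to 4372. The part of RNA quality in the differences of single genes was not tested.

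Of the 19755 probe sets, 4547 (23%) differed between the accessions at 12-13 days. C24 was higher for 2232 (11.3%) and lower for 2315 (11.7%), so the directions were nearly even. Most differences were small: the median size over all probe sets was 0.14, and that of the probe sets that passed was 0.46. A difference of 2-fold or more was reached by 463 (2.34%), of which 190 (0.962%) were higher and 273 (1.38%) lower in C24, and for 55 of these a group lay under 4.41. The 3 C24 arrays lay all above or all below the 3 Col-0 arrays for 6932 probe sets (35.1%). Gene names are restricted to the 11763 probe sets that the platform annotation gives a single gene, among them 260 of the 463. The genes named are the 12 highest and the 12 lowest, 8 whose difference was larger than at both earlier stages, and members of gene lists. The choice of the 12 highest and 12 lowest required that the arrays of the accessions do not overlap. Passing list members were named from the largest differences of their lists, so lack of overlap in them adds no separate support.

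**Figure D1:**
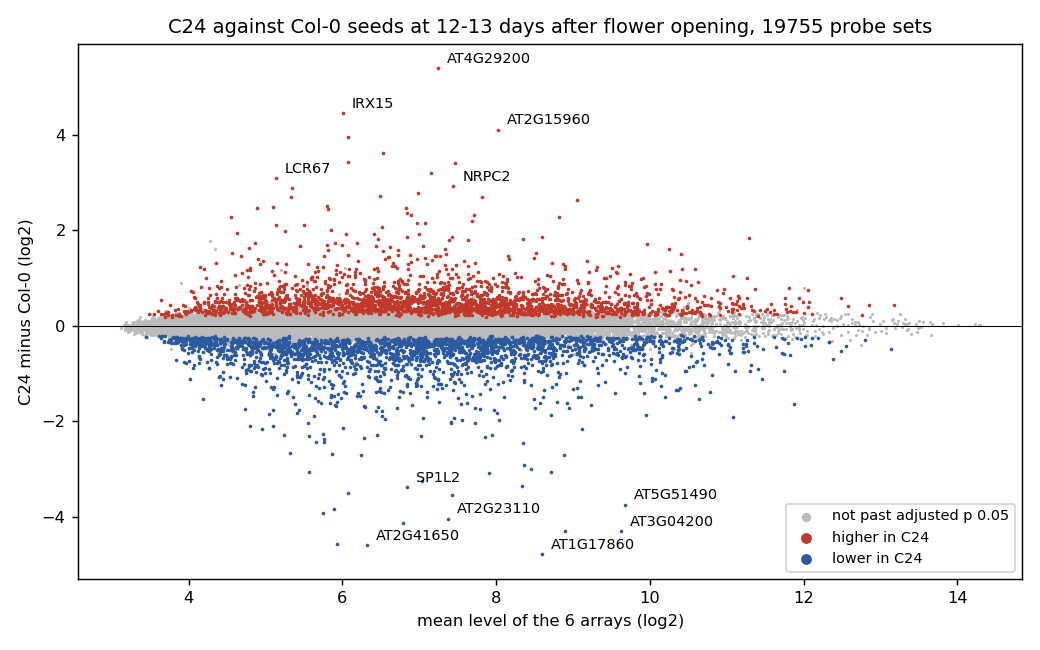
Each point is 1 of the 19755 probe sets, with its mean log2 level over the 6 arrays at 12-13 days on the x axis and the C24 minus Col-0 difference (log2) on the y axis. Red points passed and were higher in C24 (2232), blue points passed and were lower (2315), grey points did not pass, and some of the 24 genes with the highest or lowest differences are labelled.

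The genes most different between the accessions include several with dim levels in Col-0. AT4G29200 was at 10.05, 10.03 and 9.75 in C24 and at 4.18, 4.73 and 4.73 in Col-0. This was the highest difference of any named gene, 5.40 ± 0.15 (SE, adjusted p = 1.69e-14). IRX15, which acts in making the xylan of secondary cell walls, was at 8.24, 8.44 and 8.03 in C24 and at 3.73, 3.96 and 3.67 in Col-0, a difference of 4.45 ± 0.12 (adjusted p = 1.69e-14). AT5G38780, a member of the SABATH family of small-molecule methyltransferases, was at 8.27, 7.89 and 8.01 in C24 and at 4.04, 4.31 and 3.97 in Col-0, a difference of 3.95 ± 0.17 (adjusted p = 7.96e-12). In each of these genes every C24 array lay more than 3 units above every Col-0 array. For IRX15 and AT5G38780 the Col-0 mean lay under 4.41, and for AT4G29200 1 Col-0 array did and the other Col-0 arrays lay little above it, so the size of these differences is limited by possible background.

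Most other genes of this group had Col-0 levels further above 4.41. AT2G15960 was at 10.05, 10.08 and 10.11 in C24 and at 6.0, 5.73 and 6.17 in Col-0, and was 17.3-fold higher in C24 (difference 4.11 ± 0.18, adjusted p = 1.26e-11). AT1G02300, a cathepsin B-like cysteine protease, was at 8.25, 8.55 and 8.22 in C24 and at 4.66, 4.74 and 4.78 in Col-0, close to that limit (difference 3.62 ± 0.11). AT1G48800, of the terpene synthase family, was at 8.63, 8.87 and 8.75 in C24 and at 5.56, 5.47 and 5.62 in Col-0 (difference 3.20 ± 0.13). For these 3 genes the spread within an accession was far less than the gap between accessions. NRPC2, a core subunit of RNA polymerase III, was at 8.92, 8.86 and 8.95 in C24 and at 5.52, 5.85 and 6.58 in Col-0 (difference 2.93 ± 0.20, adjusted p = 3.29e-09). AT1G22550, of the nitrate and peptide transporter family, was at 8.29, 8.44 and 8.40 in C24 and at 5.43, 5.58 and 5.78 in Col-0 (difference 2.78 ± 0.15). For NRPC2 the Col-0 arrays spread over about 1 unit, with the third array highest. The remaining 4 of the 12 were AT2G27570 (difference 3.43 ± 0.08), AT5G15360 (3.41 ± 0.19), LCR67 (3.09 ± 0.19) and AT1G64130 (2.73 ± 0.16).

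The lowest difference belonged to AT1G17860, a Kunitz-type protease inhibitor, at 6.28, 6.17 and 6.16 in C24 and at 10.96, 10.85 and 11.17 in Col-0. C24 was 27.6-fold lower (difference -4.79 ± 0.19, adjusted p = 2.64e-12). AT2G41650 was at 4.35, 3.86 and 3.84 in C24 and at 8.59, 8.67 and 8.59 in Col-0, a difference of -4.60 ± 0.24 (adjusted p = 1.59e-10). AT3G04200, a germin-like protein, was at 7.37, 7.50 and 7.55 in C24 and at 11.94, 11.64 and 11.75 in Col-0, a difference of -4.30 ± 0.19 (adjusted p = 9.12e-12). The C24 mean of AT2G41650 lay under 4.41.

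A pair of neighbouring pectin methylesterase genes was lower in C24. These enzymes remove methyl groups from cell wall pectin. AT5G51500 was at 5.06, 4.56 and 4.56 in C24 and at 8.91, 8.44 and 9.20 in Col-0, a difference of -4.12 ± 0.19 (adjusted p = 1.93e-11). AT5G51490 was at 7.69, 7.87 and 7.86 in C24 and at 11.62, 11.43 and 11.60 in Col-0, a difference of -3.75 ± 0.11 (adjusted p = 2.75e-14). For both genes every C24 array lay more than 3 units below every Col-0 array. In the list of pectin methylesterases formed from gene symbols, which does not hold this pair, 1 of 5 probe sets passed (20%, beside 23% of all probe sets), and the median difference was -0.04. The 1 was PME61, at 7.27, 7.43 and 7.54 in C24 and 8.93, 8.55 and 8.44 in Col-0 (difference -1.23 ± 0.11, adjusted p = 2.86e-07).

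Another neighbouring pair, both LEA genes, was also lower in C24. AT2G23110 was at 5.46, 5.05 and 5.56 in C24 and at 9.30, 9.17 and 9.72 in Col-0, a 16.4-fold lower level in C24 (difference -4.04 ± 0.19, adjusted p = 2.61e-11). AT2G23120 was at 10.07, 9.94 and 10.26 in C24 and at 11.24, 11.45 and 11.71 in Col-0 (difference -1.38 ± 0.13, adjusted p = 2.98e-07). The arrays of the accessions did not overlap for AT2G23120 either, while for AT2G23110 the choice of genes required this. The difference was far larger for AT2G23110. SP1L2, of the SPIRAL1-like family of microtubule-associated proteins, was at 5.22, 5.10 and 5.14 in C24 and at 8.40, 8.47 and 8.72 in Col-0 (difference -3.38 ± 0.15, adjusted p = 1.26e-11). AT1G28590, a GDSL-type esterase, was at 5.25, 5.41 and 5.59 in C24 and at 8.93, 8.60 and 8.44 in Col-0 (difference -3.24 ± 0.22, adjusted p = 3.23e-09). The others of the 12 were AT4G14980 (difference -3.83 ± 0.11), AT3G19520 (-3.50 ± 0.21), AT1G02700 (-3.0 ± 0.12) and AT4G35725 (-2.91 ± 0.17).

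**Figure D2:**
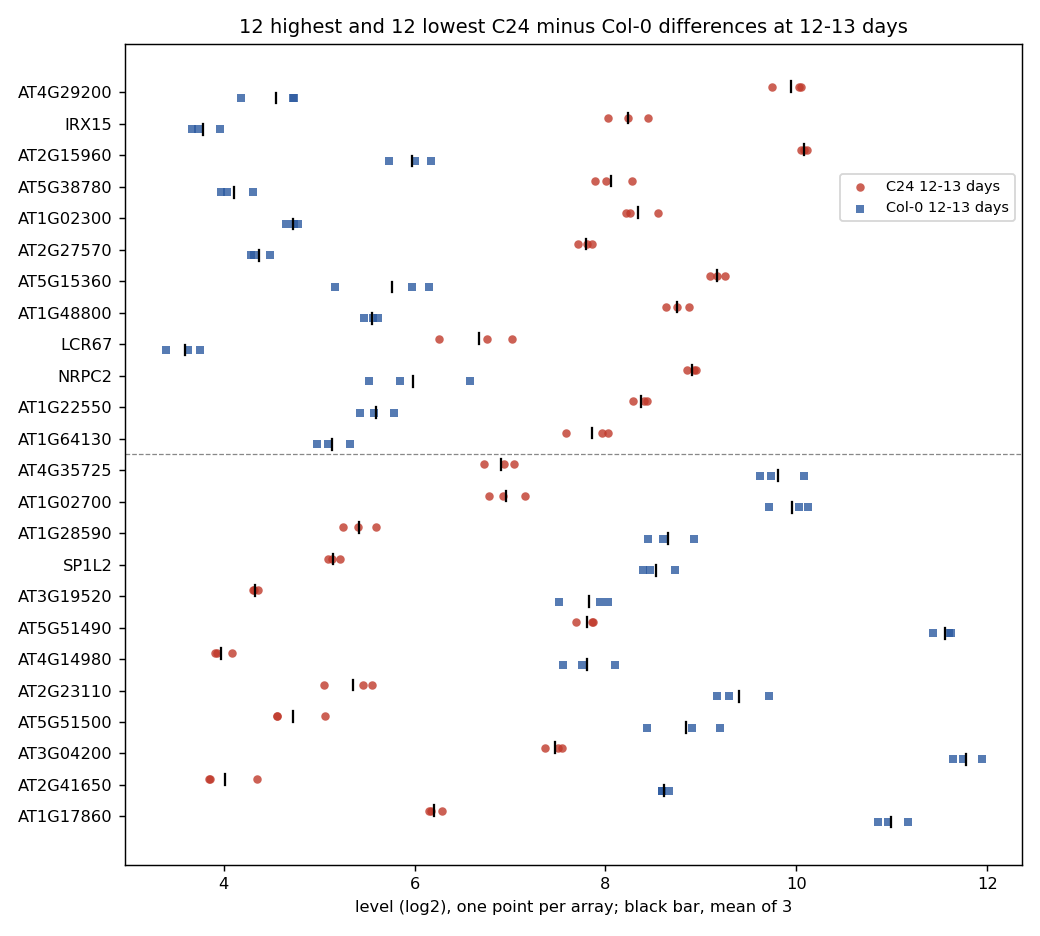
The log2 level (x axis) of the 12 named genes with the highest differences, above the dashed line, and of the 12 with the lowest, below it. Red circles are the 3 C24 arrays and blue squares the 3 Col-0 arrays at 12-13 days, black bars are means of 3, and the arrays of the accessions do not overlap for any of the 24, which the choice of genes required.

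The same accessions at the earlier stages show when these differences were present. At 10-11 days 3783 probe sets (19.1%) passed the accession test, 1898 higher in C24 (9.61%) and 1885 lower (9.54%). At 8-9 days 3847 passed (19.5%), 2025 higher (10.3%) and 1822 lower (9.22%). Of the 12-13 day calls, 893 were higher in C24 and 941 lower at 10-11 days as well, and 121 passed at 10-11 days with the opposite sign. The same direction at all 3 stages was found for 533 higher and 536 lower in C24, while 983 higher and 1000 lower passed at 12-13 days and at neither earlier stage. Missing the threshold earlier does not show that a difference was absent there, so the differences themselves were compared between stages. The accession difference at 12-13 days differed from that at 10-11 days for 1634 probe sets (8.27%), with 727 positive contrasts (3.68%) and 907 negative ones (4.59%). It differed from that at 8-9 days for 2100 (10.6%), 934 positive (4.73%) and 1166 negative (5.9%). The model treats the stages as independent, although plants were common to them. The count against 10-11 days depended on single arrays of that stage: it was 1040 without the second Col-0 array at 10-11 days, the lowest of these counts, and the 727 positive contrasts became 439 without that array and 458 without the first.

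Of the 24 genes, 5 passed neither of these stage contrasts. AT4G29200 was at 10.60 ± 0.07, 9.95 ± 0.15 and 9.94 ± 0.17 in C24 at 8-9, 10-11 and 12-13 days, and at 4.56 ± 0.26, 4.30 ± 0.16 and 4.55 ± 0.32 in Col-0 (SD, n = 3 each). AT2G41650 averaged 5.41 ± 0.79, 4.06 ± 0.12 and 4.02 ± 0.29 in C24 and 9.28 ± 0.06, 8.86 ± 0.14 and 8.62 ± 0.04 in Col-0. AT5G15360, AT1G64130 and AT3G19520 were the other 3. Their accession differences passed at all 3 stages, with sizes of 2.09 to 3.94 at 8-9 days.

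For others the gap opened later, through C24. IRX15 was at 3.85 ± 0.05, 7.79 ± 0.25 and 8.24 ± 0.21 in C24 at the 3 stages and at 3.84 ± 0.07, 3.73 ± 0.14 and 3.78 ± 0.15 in Col-0. The accession difference at 12-13 days exceeded that at 8-9 days by 4.44 ± 0.17 (adjusted p = 7.55e-12), while the contrast with 10-11 days, 0.39 ± 0.17, did not pass (adjusted p = 0.185). AT5G38780 was at 4.32 ± 0.22, 6.05 ± 0.45 and 8.06 ± 0.20 in C24 and stayed between 4.04 and 4.10 in Col-0. AT2G27570 was at 3.56 ± 0.04, 4.38 ± 0.13 and 7.79 ± 0.07 in C24, and at 3.51 ± 0.05, 3.46 ± 0.01 and 4.36 ± 0.11 in Col-0. In these genes the C24 levels lay higher at each later stage, and the Col-0 means stayed under 4.41 throughout.

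LCR67 (AT1G75830) encodes a secreted plant defensin. It was at 6.25, 7.02 and 6.76 in the C24 arrays and at 3.75, 3.62 and 3.39 in the Col-0 arrays at 12-13 days. At 8-9 and 10-11 days it averaged 3.55 ± 0.02 and 3.56 ± 0.05 in C24 and 3.52 ± 0.10 and 3.85 ± 0.48 in Col-0, and neither accession difference passed. The difference at 12-13 days exceeded that at 10-11 days by 3.38 ± 0.27 (adjusted p = 8.73e-07). Every level other than that of C24 at 12-13 days lay under 4.41, apart from the third Col-0 array at 10-11 days, which was at that value. It was the 1 gene among the 24 whose accession difference did not pass at 10-11 days.

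In another set of genes the later gap came through Col-0. AT5G51500 was at 4.12 ± 0.11, 4.45 ± 0.12 and 4.73 ± 0.29 in C24 at 8-9, 10-11 and 12-13 days, and at 4.59 ± 0.16, 6.66 ± 0.38 and 8.85 ± 0.38 in Col-0. AT2G23110 was at 4.10 ± 0.01, 4.28 ± 0.17 and 5.36 ± 0.27 in C24, and at 4.23 ± 0.04, 6.81 ± 0.50 and 9.40 ± 0.28 in Col-0. SP1L2 was at 4.64 ± 0.03, 5.19 ± 0.23 and 5.15 ± 0.06 in C24, and at 5.70 ± 0.29, 6.90 ± 0.30 and 8.53 ± 0.17 in Col-0. Each had Col-0 levels that were higher at each later stage, and for all 3 the difference at 12-13 days lay below that at 10-11 days, by -1.91 ± 0.27, -1.51 ± 0.27 and -1.67 ± 0.21 (adjusted p = 0.000298, 0.00208 and 0.000123). The neighbour of each pair followed another course: AT5G51490 already differed at 8-9 days (difference -2.25, adjusted p = 6.3e-11), and so did AT2G23120 (-1.90, adjusted p = 6.39e-09).

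Other genes had C24 levels at both later stages that lay below those at 8-9 days. AT4G35725 was at 9.05 ± 0.14, 7.23 ± 0.38 and 6.90 ± 0.16 in C24, and at 9.10 ± 0.11, 9.31 ± 0.28 and 9.81 ± 0.24 in Col-0. AT1G02700 was at 8.93 ± 0.15, 6.12 ± 0.09 and 6.95 ± 0.19 in C24, and at 9.15 ± 0.10, 7.87 ± 0.18 and 9.96 ± 0.21 in Col-0. Their 8-9 day differences of -0.05 and -0.22 did not pass (adjusted p = 0.871 and 0.234). For AT1G02700 both accessions were higher at 12-13 than at 10-11 days, Col-0 by more, and the contrast between these stages was -1.25 ± 0.17 (adjusted p = 0.00024).

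For 191 probe sets higher in C24 (0.967%) and 313 lower (1.58%) the 12-13 day difference passed and exceeded that of both earlier stages in the same direction. Outside the 24, the highest named genes of this kind were AGL19 (2.49 ± 0.10), AT2G17300 (2.15 ± 0.10), AT3G28155 (1.94 ± 0.13) and AT1G34580 (1.85 ± 0.09), and the lowest were AT4G18250 (-2.66 ± 0.16), AT1G65510 (-2.43 ± 0.15), UGT87A2 (-2.43 ± 0.17) and AT1G28400 (-1.91 ± 0.13). AGL19, a MADS-box transcription factor known for promoting flowering, was at 6.20, 6.38 and 6.44 in C24 and at 3.81, 3.97 and 3.78 in Col-0. AT1G34580, a monosaccharide transporter, was at 7.73, 7.73 and 7.85 in C24 and at 5.96, 5.77 and 6.02 in Col-0. At 8-9 and 10-11 days AT1G34580 averaged 8.99 ± 0.14 and 7.52 ± 0.11 in C24 and 9.10 ± 0.02 and 7.45 ± 0.12 in Col-0, so the accessions were close until the last stage. AT1G28400 was at 10.10, 10.07 and 10.20 in C24 and at 12.14, 11.92 and 12.05 in Col-0, after averages at 10-11 days of 11.10 ± 0.27 in C24 and 11.93 ± 0.05 in Col-0. UGT87A2, a UDP-glycosyltransferase, was at 4.24, 4.75 and 4.66 in C24 and at 7.37, 6.63 and 6.96 in Col-0. The contrast with 10-11 days was small and near the threshold for AGL19 (0.46 ± 0.13, adjusted p = 0.0413), AT2G17300 (0.53 ± 0.14, adjusted p = 0.0273) and UGT87A2 (-0.79 ± 0.24, adjusted p = 0.0479), and it was lost for all 3 in a fit of the compared groups alone (adjusted p = 0.0592, 0.0512 and 0.0698).

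**Figure D3:**
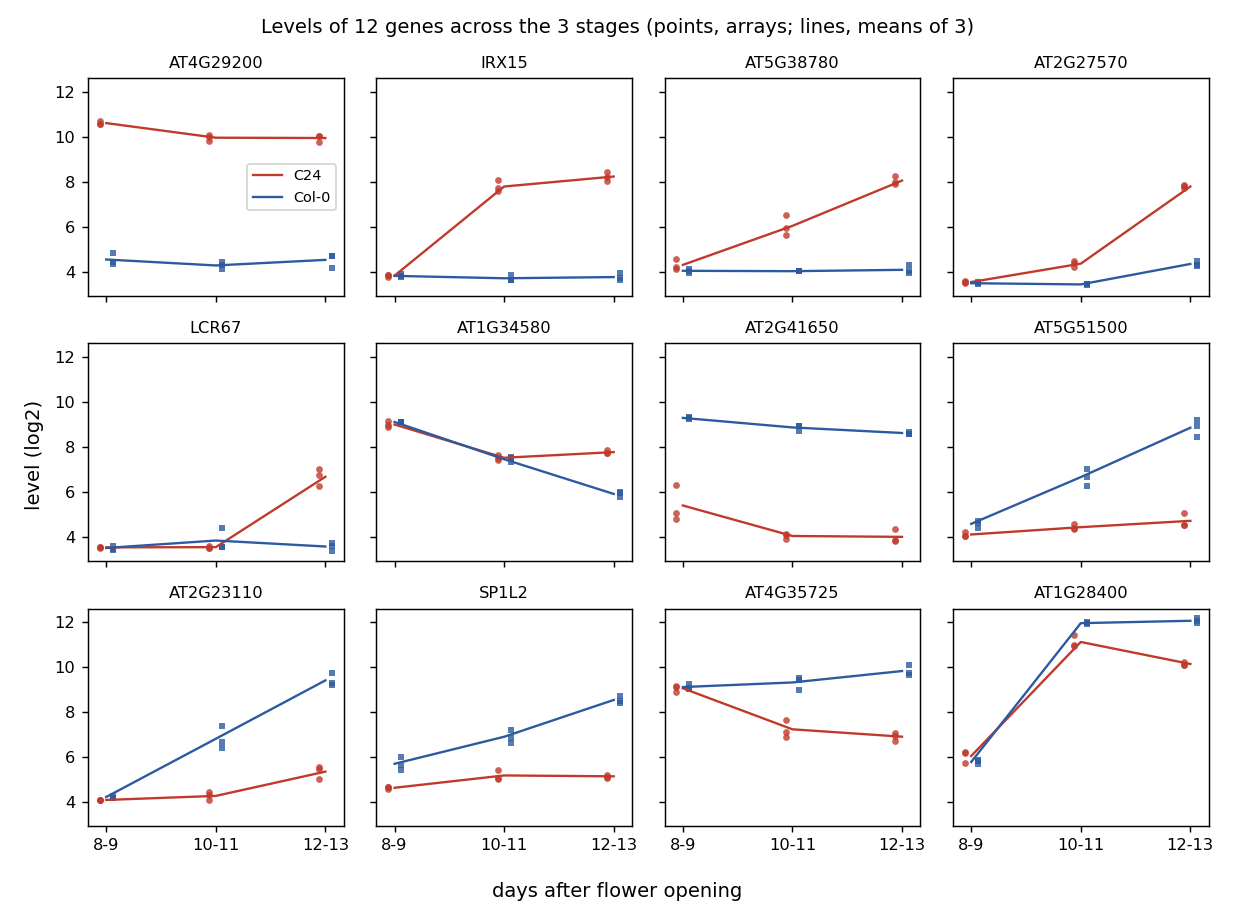
The log2 level (y axis) of 12 genes at 8-9, 10-11 and 12-13 days after flower opening (x axis), in C24 (red circles) and Col-0 (blue squares). Points are arrays and lines join means of 3: IRX15, AT5G38780, AT2G27570 and LCR67 have C24 lines that end higher than they start, AT5G51500, AT2G23110 and SP1L2 have such Col-0 lines, and AT4G29200 and AT2G41650 are apart at all 3 stages.

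None of the 5 named storage protein probe sets passed, beside 23% of all probe sets. Their differences were 0.04 to 0.25, with a median of 0.09 beside -0.01 over all probe sets. For 3 of the 5 the arrays of the accessions did not overlap, as for 35.1% of all probe sets. The SE draws on the spread at all stages. For AT1G03890 it was 0.36, beside 12-13 day SDs of 0.04 in C24 and 0.03 in Col-0. Missing the threshold therefore does not show equal levels. PAP85 and AT1G03890 averaged 13.27 to 13.59 in the accessions, and the maxima of the 12-13 day arrays were 14.28 to 14.33. Whether such high levels compress differences was not tested. Of the oil body proteins 1 of 2 passed (50%, beside 23% of all probe sets). It was OLEO3, an oleosin that coats oil bodies, at 13.42, 13.37 and 13.39 in C24 and at 12.89, 12.96 and 13.01 in Col-0 (difference 0.44 ± 0.06, adjusted p = 5.38e-05), with no overlap. Of 8 genes of fatty acid and oil synthesis, 3 were higher and 1 lower in C24 (37.5% and 12.5%, beside 11.3% and 11.7% of all probe sets), with a median of 0.24. AT5G16230, an acyl-ACP desaturase, was at 10.82, 10.79 and 10.90 in C24 and at 9.71, 9.61 and 9.75 in Col-0, which is about 2-fold higher in each C24 array (difference 1.14 ± 0.09, adjusted p = 4.39e-08). AT1G24360, a ketoacyl-ACP reductase of the chain-building cycle, differed by 0.38 ± 0.09 (adjusted p = 0.00306). The thioesterases that release finished chains went opposite ways, FaTA by 0.32 ± 0.09 and FATB by -0.25 ± 0.08 (adjusted p = 0.0168 and 0.0279), and both of those calls were lost when 1 of several single arrays was left out. BZIP53, a transcription factor that activates storage genes, was higher in C24 by 0.36 ± 0.09 (adjusted p = 0.00576), 1 of 2 named maturation regulators to pass (50%, beside 23% of all probe sets).

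Of 26 named LEA probe sets, 7 were lower in C24 (26.9%, beside 11.7% of all probe sets), 1 was higher (3.85%, beside 11.3%) and 18 did not pass. Their median difference was -0.09. Beside AT2G23110 and AT2G23120, the genes with the lowest differences were a pair of dehydrins, the group of LEA proteins known from cold and drought. COR47 was at 6.12, 6.54 and 6.75 in C24 and at 8.16, 7.98 and 8.03 in Col-0 (difference -1.58 ± 0.11, adjusted p = 8.63e-09). LTI30 was at 8.95, 8.69 and 8.89 in C24 and at 10.01, 10.17 and 10.59 in Col-0 (difference -1.41 ± 0.19, adjusted p = 2.81e-05). Neither gene overlapped between accessions, and they came to it by different courses. COR47 was at 8.09 ± 0.03, 6.73 ± 0.04 and 6.47 ± 0.32 in C24 at the 3 stages and between 8.04 and 8.14 in Col-0. LTI30 was at 5.82 ± 0.07, 6.73 ± 0.25 and 8.84 ± 0.14 in C24 and at 5.60 ± 0.03, 6.59 ± 0.53 and 10.26 ± 0.30 in Col-0, and its earlier differences of 0.22 and 0.14 did not pass (adjusted p = 0.507 and 0.692).

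Seed coat, endosperm and fruit wall lists were thinly named. BAN, the anthocyanidin reductase that makes the building blocks of seed coat tannins, was at 8.46, 8.08 and 8.27 in C24 and at 7.54, 7.10 and 7.31 in Col-0, higher in C24 by 0.95 ± 0.16 (adjusted p = 0.000255). At 8-9 days the sign was opposite, with 10.91 ± 0.21 in C24 and 11.66 ± 0.07 in Col-0 (difference -0.75, adjusted p = 0.00264). BAN was the 1 gene of 3 flavonoid genes to pass at 12-13 days (33.3%, beside 23% of all probe sets), and neither of the 2 mucilage genes did. AGL62, a regulator of endosperm, was lower in C24 by -0.27 ± 0.08 with levels under 4.41 in both accessions (adjusted p = 0.0219), and YAB3, a fruit wall gene, was higher by 0.41 ± 0.11 (adjusted p = 0.0116). The YAB3 call was lost without the third Col-0 array (adjusted p = 0.0756).

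Of 21 named genes of light harvesting, the photosystems and the thylakoid, 4 were higher and 1 was lower in C24, with a median of -0.01. The share that passed, 23.8%, was that of all probe sets (23%). AT4G38100, which encodes a protein of thylakoid curvature, was at 8.01, 8.07 and 7.95 in C24 and at 7.35, 7.18 and 7.52 in Col-0 (difference 0.66 ± 0.09, adjusted p = 3.71e-05). NdhS, a subunit of the chloroplast NADH dehydrogenase-like complex, was at 7.29, 7.65 and 7.51 in C24 and at 8.14, 7.90 and 8.18 in Col-0 (difference -0.59 ± 0.09, adjusted p = 0.000129). The groups were apart for both genes, in opposite directions. In chlorophyll synthesis, HEME2 was lower in C24 by -0.49 ± 0.12 and PORB, a light-dependent protochlorophyllide reductase, was higher by 0.55 ± 0.17 (adjusted p = 0.00563 and 0.0229). For PORB the arrays overlapped, and the call was lost in the fit of the compared groups alone (adjusted p = 0.0785) and without any of 4 single arrays (0.0506 to 0.145).

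Glucosinolates are sulfur compounds of the cabbage order that deter herbivores. Of 6 named genes of this pathway 2 passed, both lower in C24 (33.3%, beside 11.7% of all probe sets). AT2G25450, the dioxygenase that adds a hydroxyl group to the side chain of alkenyl glucosinolates, was at 8.11, 8.22 and 7.79 in C24 and at 10.32, 10.10 and 10.16 in Col-0 (difference -2.15 ± 0.13, adjusted p = 7.68e-10). It had been lower in C24 at 8-9 and 10-11 days too, by -1.20 and -2.19 (adjusted p = 1.7e-06 and 7.37e-10). GTR1, a transporter that loads glucosinolates into seeds, differed by -0.35 ± 0.10 (adjusted p = 0.0205), and this call was lost without any of 3 single arrays (adjusted p = 0.059 to 0.0823). Among 3 named genes of a list drawn up for salicylate defence 1 passed (33.3%, beside 23% of all probe sets), and that was LCR67, the defensin described above. All 3 had a group mean under 4.41. A link of LCR67 to salicylate was not tested.

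Of 50 UDP-glycosyltransferases, which attach sugars to hormones and secondary metabolites, 11 were lower (22%, beside 11.7% of all probe sets) and 4 higher in C24 (8%, beside 11.3%), with a median of -0.11. The count of 11 lay between 8 and 11 under the alternatives. UGT85A7 was at 7.78, 8.03 and 7.84 in C24 and at 6.17, 6.25 and 6.23 in Col-0 (difference 1.67 ± 0.10), and UGT71B1 was at 7.40, 7.38 and 7.26 in C24 and at 9.00, 8.69 and 8.85 in Col-0 (difference -1.50 ± 0.13). Both had arrays that did not overlap (adjusted p = 1.22e-09 and 1.34e-07). Of 13 glutathione transferases 3 were higher and 1 lower in C24 (30.8% passed, beside 23% of all probe sets). GSTU26 was at 10.41, 10.32 and 10.37 in C24 and at 7.75, 7.77 and 7.69 in Col-0, 6.2-fold higher in C24 (difference 2.63 ± 0.11, adjusted p = 4.65e-12), and was higher at both earlier stages. GSTU27 was higher by 1.23 ± 0.14 and GSTU18 lower by -0.50 ± 0.09 (adjusted p = 3.76e-06 and 0.000291).

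Of 23 cytochromes P450, 2 were higher and 3 lower in C24, a share of 21.7% beside 23% of all probe sets. CYP78A9, a P450 known for its effect on fruit and seed size, was at 11.07, 11.01 and 11.09 in C24 and at 12.75, 12.64 and 12.66 in Col-0, lower in C24 by -1.63 ± 0.15 (adjusted p = 1.78e-07). At 8-9 days it was higher in C24, at 5.07 ± 0.06 against 4.47 ± 0.16 in Col-0 (difference 0.59, adjusted p = 0.00737). Of 21 beta-glucosidases, enzymes that release sugars from conjugates, 2 were higher and 4 lower, 28.6% beside 23% of all probe sets. BGLU19 was at 9.80, 9.53 and 9.65 in C24 and at 10.57, 10.79 and 10.60 in Col-0 (difference -0.99 ± 0.20, adjusted p = 0.00144). At 10-11 days its difference had the opposite sign, with 7.07 ± 0.38 in C24 and 5.51 ± 0.57 in Col-0 (1.56, adjusted p = 1.81e-05). BGLU45 was lower by -1.37 ± 0.18 and BGLU29 higher by 0.71 ± 0.14 (adjusted p = 1.25e-05 and 0.00137). Of 27 serine carboxypeptidase-like proteins, 2 were higher and 5 lower, 25.9% beside the same 23%. The lowest difference was that of scpl42, at 4.70, 4.74 and 4.29 in C24 and 7.23, 6.69 and 6.94 in Col-0 (difference -2.38 ± 0.21, adjusted p = 1.06e-07).

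Of 23 trichome birefringence-like proteins, a family that acetylates wall polysaccharides, 4 were higher and 2 lower in C24 (26.1% passed, beside 23% of all probe sets). TBL26 was at 7.79, 8.16 and 8.08 in C24 and at 6.83, 6.64 and 6.15 in Col-0 (difference 1.47 ± 0.16, adjusted p = 1.44e-06), and TBL30 was lower by -0.84 ± 0.13 (adjusted p = 0.000118). The expansins, which loosen walls, had 2 lower among 18 (11.1%, beside 11.7% of all probe sets) and none higher. EXPA9 was at 5.81, 5.46 and 5.65 in C24 and at 7.29, 6.57 and 6.73 in Col-0 (difference -1.22 ± 0.16, adjusted p = 1.45e-05). EXPA4 differed by -0.40 ± 0.12 (adjusted p = 0.0198), and its call was lost in the fit of the compared groups alone (adjusted p = 0.0609). For EXPA9 and TBL26 all 3 C24 arrays lay on 1 side of all 3 Col-0 arrays. Among 9 peroxidases 2 were higher (22.2%, beside 11.3% of all probe sets), PRX52 by 1.48 ± 0.14 and SAPX, an ascorbate peroxidase of plastids, by 0.63 ± 0.16 (adjusted p = 5.2e-07 and 0.00615).

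Of 14 SWEET sugar exporters 2 were higher and 3 lower in C24 (35.7% passed, beside 23% of all probe sets), and the call of SWEET2, 1 of the 3, was lost when any of 5 single arrays was left out (adjusted p = 0.0567 to 0.114). SWEET4 was at 7.68, 7.54 and 7.34 in C24 and at 5.66, 5.93 and 6.19 in Col-0 (difference 1.59 ± 0.18, adjusted p = 2.66e-06), with no overlap. Of 8 ATG8 proteins, which build autophagosome membranes, 3 were lower and 1 higher (50% passed, beside 23% of all probe sets), with differences between -0.50 and 0.37. Of 35 AGAMOUS-like factors 3 were higher and 1 lower, 11.4% beside 23% of all probe sets. Beside AGL19 and AGL62 these were AGL87 (1.20 ± 0.14) and AGL18 (0.45 ± 0.10), with adjusted p = 6.14e-06 and 0.00195. For 20 of the 35 a group mean lay under 4.41, a larger share than over all probe sets (4811 of 19755). The part of such dim levels in the low share of the AGAMOUS-like factors was not tested. Of 6 histone genes 33.3% passed, beside 23% of all probe sets. HTB4, an H2B histone, was lower at 9.66, 9.71 and 9.64 in C24 and 10.40, 10.33 and 10.39 in Col-0 (difference -0.70 ± 0.07, adjusted p = 4.45e-07). HTB1, also an H2B histone, was higher by 0.42 ± 0.11 (adjusted p = 0.0114).

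**Figure D4:**
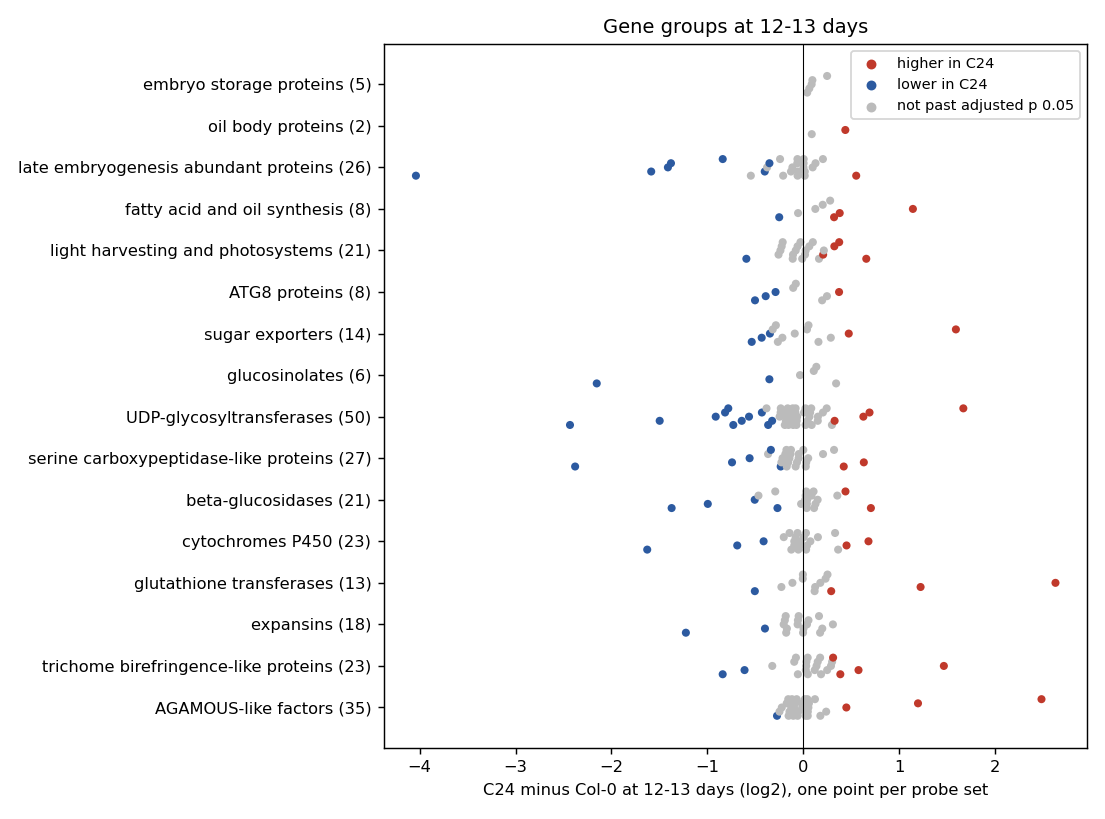
Each point is 1 named probe set of a gene group (rows, with the number of probe sets in brackets), placed by its C24 minus Col-0 difference at 12-13 days (x axis, log2). Red points passed and were higher in C24, blue points passed and were lower, and grey points did not pass. The storage proteins are all grey, at 0.04 to 0.25. Most other groups have a member beyond 2-fold, but the oil body proteins, light harvesting and photosystems, and ATG8 proteins do not.

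The lists of heat shock and cell division genes had 1 member past the threshold each, HSA32 (0.34 ± 0.08, adjusted p = 0.00642) among 6 and the Aurora kinase AUR2 (-0.30 ± 0.09, adjusted p = 0.0188) among 5. These shares were 16.7% and 20%, beside 23% of all probe sets, and lists this short cannot tell such shares apart. Of 9 xyloglucan endotransglucosylases 1 was lower (11.1%, beside 11.7% of all probe sets). The starch and raffinose genes (2), the chlorophyll breakdown gene and the jasmonate gene did not pass. Lists of abscisic acid, gibberellin, flowering time and lipid transfer genes had no named probe set.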

How the data were processed

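The authors deposited 1 table of log2 levels per probe set for 18 Affymetrix ATH1 arrays, 3 in each of 6 groups. Per the labels, they kept probes that are identical in the Col-0 and C24 genomes and match TAIR10 gene models, and required 3 probes or more per probe set. How background was corrected and arrays were normalized is not stated in the labels or the table. The values were used as deposited, without a filter on low values, and for arrays their number limits the precision.

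Of 19766 probe sets, 11 controls were left out. The platform annotation named 1 gene for 11763 of the others, several for 61, and did not list 7931. RefSeq's gene table (assembly TAIR10.1) held 11718 of the 11763 and was used for symbols and gene order, and coordinates are not printed.

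limma 3.58.1 (R 4.3.3) fitted 1 mean per group over the 18 arrays, with 12 residual and 5.8 prior degrees of freedom. C24 minus Col-0 at 12-13 days, the same at each earlier stage, and the differences between these were tested with Benjamini-Hochberg adjustment over 19755 probe sets and a threshold of 0.05. For a single gene, exact permutation of 3 against 3 arrays has a smallest p of 0.1. The fit was tested on simulated data. Named genes were the 12 highest and 12 lowest differences past the threshold with arrays that do not overlap, the 4 highest and 4 lowest others larger than at both earlier stages, and up to 4 members of a list past the threshold, of which those named were picked after their values had been seen. The comparison, the lists and the rules were chosen with earlier results of these data known. The lists formed from gene names (UDP-glycosyltransferases, cytochromes P450, trichome birefringence-like proteins, beta-glucosidases, photosystems, peroxidases, histones, ATG8 proteins, pectin methylesterases) were revised after values had been seen, and PME61 is the passing member of the last. No list was tested as a set. Alternatives were the compared groups alone, a trended and robust prior variance, further quantile normalization, median centring, leaving out the dimmest 30% of probe sets, the replicate number as a block, the controls included, each array left out in turn, and 2-fold differences.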

Additional observations from a re-analysis of the deposited data

Results flagged for a closer look

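For 38 genes the accession difference at 12-13 days differed from that at an earlier stage by the limma test of the difference itself (adjusted p under 0.05). They are the genes among the 24 and the 8 that passed such a contrast, and members of the lists whose contrast reached 2-fold, a limit set after the values had been seen. The value is the accession difference (C24 minus Col-0, log2) at 12-13 days minus that at the earlier stage, which is 8-9 days unless 10-11 days is named, and the cause of these shifts was not tested.

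Upward shifts against 8-9 days included those of IRX15 (4.44), AT5G38780 (3.69), AT2G27570 (3.38), AT1G22550 (2.88) and AT2G15960 (2.85). LCR67 gave 3.06 against 8-9 days and 3.38 against 10-11 days. AT1G34580 (1.97), AT3G28155 (1.91), AGL19 (1.73), AT1G48800 (1.61), NRPC2 (1.43) and AT2G17300 (1.24) followed. AT1G28590 gave 1.41 against 10-11 days, where its deficit in C24 had been larger. AT1G02300 gave -0.50, a smaller excess in C24 than at 8-9 days (adjusted p = 0.0497), and the call was lost under several alternatives.

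Downward shifts against 8-9 days were those of AT2G23110 (-3.91), AT5G51500 (-3.65), AT4G14980 (-3.39), AT4G35725 (-2.85), AT1G02700 (-2.78), AT4G18250 (-2.54), AT1G65510 (-2.43), SP1L2 (-2.32), AT1G28400 (-2.18), UGT87A2 (-1.91), AT3G04200 (-1.85), AT5G51490 (-1.49) and AT1G17860 (-1.36).

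Among list members, upward shifts against 8-9 days were found for BAN (1.70), UGT85A7 (1.65) and PRX52 (1.44). Downward shifts were found for CYP78A9 (-2.22), EXPA9 (-1.80), LTI30 (-1.63), COR47 (-1.54) and BGLU45 (-1.11). Against 10-11 days, BGLU19 gave -2.56, scpl47 -1.21 and TBL30 -1.16. In BAN, EXPA9 and CYP78A9 the accession difference passed with opposite signs at 8-9 and 12-13 days, and in BGLU19 at 10-11 and 12-13 days.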

How the results depend on the processing

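The 4547 calls at 12-13 days became 3586 in a fit of the compared groups alone and 4663 after further quantile normalization, and 3627 to 4372 when 1 array was left out (higher 1750 to 2090, lower 1877 to 2282). At 2-fold or more, 463 were left (190 higher, 273 lower). The stage contrast with 10-11 days gave 1634 calls, 1040 to 1767 with 1 array left out (positive 439 to 805, negative 601 to 962) and 235 at 2-fold (81 positive, 154 negative). The contrast with 8-9 days gave 2100 calls, 1634 to 2116 with 1 array left out (positive 693 to 905, negative 934 to 1216) and 484 at 2-fold (190 positive, 294 negative). The 2-fold counts are smaller by construction, and the cause of the other shifts was not tested.

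Between the accessions at the last stage, arrays with the same replicate number in the labels did not deviate together (correlations -0.08, -0.05 and 0.09). The numbers thus gave no sign of pairing arrays between the accessions. Pairing across stages within an accession, where plants were common, was not tested. With the replicate block the counts were 4520, 1646 and 2076.

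None of the 87 named genes followed under the alternatives changed sign. Calls of FaTA, FATB, PORB, AGL62, YAB3, GTR1, AUR2, scpl47, EXPA4, SWEET2, HTB1 and ATG8H were lost under at least 1 alternative. Of 866 recomputed stage contrasts, 41 lost their call, all of AT1G02300, AGL19, AT2G17300 or UGT87A2. The LEA count of 7 lower lay between 6 and 8, and the count of 11 lower UDP-glycosyltransferases between 8 and 11. No detection measure is given, so the size of differences against levels under 4.41 is limited by background.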

Other observations

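The differences were spread over the genome. Of the genes placed on a chromosome by the RefSeq table, the share that passed at 12-13 days was 22.2% on chromosome 1, 20.5% on chromosome 2, 22.8% on chromosome 3, 22.9% on chromosome 4 and 21.7% on chromosome 5. Of 5186 pairs of genes that neighbour each other and were both measured, 2 were 2-fold or more lower in C24 together, AT2G23110 with AT2G23120 and AT5G51490 with AT5G51500, and no pair was 2-fold or more higher together. In 1 pair the neighbours went opposite ways: AT4G35725 differed by -2.91 and AT4G35730 by 1.08 (adjusted p = 5.85e-10 and 1.64e-05). Of the 11308 genes placed, 255 (2.26%) differed by 2-fold or more. The pairs were picked out after the values had been seen and no test was run on them.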
